A study of Mus musculus with 35 samples.

Results

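The suprabasal differentiation keratins are the filament proteins that epidermal keratinocytes switch on once they leave the basal layer. Krt1, Krt2, Krt10, Krt77, Krt78 and Krt80 were taken by gene symbol from the deposited counts, where they were 6 of 22830 symbols and each had 1 RefSeq transcript. RNA-seq had been performed on punches from the middle of full-thickness dorsal skin wounds of adult C57BL/6 mice of both sexes, and the 35 wound libraries fell into 8 groups. Every mouse carried Col5a1fl/fl and received tamoxifen around the time of wounding. Col5a1CKO mice also carried Col1a2CreERT, which deletes Col5a1 in fibroblasts and is not directed at keratinocytes, and the Cre-negative littermates are called WT. At day 14 after wounding there were 7 WT wounds, 7 Col5a1CKO wounds and 3 Col5a1CKO wounds injected intradermally with WT skin fibroblasts (Col5a1CKO + fibroblasts). Day 19 was represented by 3 wounds of each of these genotypes. A separate experiment at day 14 held 4 WT + vehicle, 4 Col5a1CKO + vehicle and 4 Col5a1CKO + cilengitide wounds, cilengitide being a small-molecule inhibitor of the integrin αvβ3. Groups follow the sample titles, although the treatment label of the 3 day 19 Col5a1CKO libraries names WT fibroblasts, which the titles place at day 14. In the paper's legends the groups of 7 WT and 7 Col5a1CKO wounds at day 14 carry the word vehicle. PBS was its control for mice given no fibroblasts. Here the word vehicle is kept for the groups of the cilengitide experiment.

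Keratins assemble from 1 type I and 1 type II partner, so neither type forms a filament alone. Basal keratinocytes build their filaments from Krt5 (type II) and Krt14 (type I), and cells that move up replace this pair with Krt1 (type II) and Krt10 (type I), the main filament pair of the spinous layer. Krt2 is a type II keratin of the upper spinous and granular layers, Krt77 a type II relative of Krt1, Krt78 a type II keratin of stratified epithelia, and Krt80 a type II keratin found near desmosomes of differentiating cells. At a wound edge, migrating keratinocytes instead make the stress keratins Krt6a, Krt6b, Krt16 and Krt17, and the Krt1 and Krt10 pair returns as the new epidermis stratifies.

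In build NCBI37/mm9, Krt10 lies on the minus strand of chromosome 11 (chr11:99246568-99250678). The 5 type II genes lie on the minus strand of chromosome 15, within 607 kb that hold 26 coding genes, 22 of them keratins. Krt80 (chr15:101177875-101200556) sits at 1 end, followed by Krt2 (chr15:101641120-101648600), Krt1 (chr15:101675859-101681217), Krt77 (chr15:101689163-101700136) and Krt78 (chr15:101776435-101784718). Krt1 and Krt77 are neighbours, 7945 bp apart. The promoters of Krt10, the type I partner, and of Krt77, the member that differed most between Col5a1CKO + vehicle and WT + vehicle wounds, are shown as the 300 bases around the transcription start given by RefSeq for build GRCm38.p6 on the minus strand (chr11:99389315-99389614 and chr15:101869656-101869955). Capitals mark matches to a C/EBP motif (TTNNGNAA) and to the TATA box (TATAAA), read on both strands.
Krt10: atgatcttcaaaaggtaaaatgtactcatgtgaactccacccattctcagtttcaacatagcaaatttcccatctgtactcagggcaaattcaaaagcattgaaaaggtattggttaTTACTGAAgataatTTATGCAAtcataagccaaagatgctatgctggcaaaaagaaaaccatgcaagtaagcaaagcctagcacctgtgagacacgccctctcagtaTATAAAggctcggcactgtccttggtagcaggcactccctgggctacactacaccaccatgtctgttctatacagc
Krt77: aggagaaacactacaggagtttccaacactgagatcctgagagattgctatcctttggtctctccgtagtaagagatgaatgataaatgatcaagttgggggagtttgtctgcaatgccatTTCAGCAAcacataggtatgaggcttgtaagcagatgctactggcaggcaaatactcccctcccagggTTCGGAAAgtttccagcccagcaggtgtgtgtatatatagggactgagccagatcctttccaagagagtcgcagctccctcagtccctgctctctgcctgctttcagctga
Both hold 2 matches to the C/EBP motif, which 40.7% of 32851 mouse promoters of this length hold at least once. Krt10 has a TATAAA 26 bases before its start, and 13.6% of promoters hold those letters. Promoters were found for 4 of the 6 members. Krt2 had 1 C/EBP match and Krt78 had none, and none of the 4 held the AP-1 motif TGANTCA, which 7.81% of promoters hold. Of the other motifs searched, CACCC (KLF, in 57.5% of promoters) was found once each in Krt10 and Krt2, CAGGAA (ETS, 30.6%) once in Krt2, and GCCNNNGGC (AP-2, 16.6%) in none of the 4.

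The libraries held 15043531 to 35700337 counts in the time-course and fibroblast experiment and 51211600 to 68266760 in the cilengitide experiment. Levels are given as CPM, counts scaled to a common library total after TMM normalisation. Col5a1, the targeted gene, had a median of 369 CPM (range 172 to 667) in day 14 Col5a1CKO and 851 CPM (345 to 2404) in WT wounds, and the libraries of these groups overlapped, as they did in the other comparisons between groups. By edgeR its log2 fold change at day 14 was -1.43 (standard error, SE, 0.49, adjusted p = 0.0756). Keratinocytes were followed with 10 markers, among them Krt5, Krt14, Trp63 and Cdh1, and in no group was any of them at 0 in every library. Some wounds held little of them, at a summed 47.9 CPM in day 14 Col5a1CKO replicate a and 98.3 in Col5a1CKO + vehicle replicate 2. In the time-course and fibroblast experiment the libraries split into 2 sets by how strongly GC-rich genes were counted relative to GC-poor genes. The lower set held 4 of the 7 day 14 WT libraries (a to d) and 5 of the 7 day 14 Col5a1CKO libraries (a to e), and the upper set held every other library. The labels give no sequencing batch, so what the sets stand for was not tested. Within the lower set Col5a1 did not overlap at day 14 (851 to 2404 CPM in WT, 172 to 667 in Col5a1CKO). Within the upper set it did, with 366, 378 and 345 CPM in WT and 351 and 229 in Col5a1CKO wounds. Keratin values are given within the sets where both groups allow.

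Together the 6 keratins took a median of 7.80% of all counts in WT + vehicle wounds (range 4.34% to 8.26%) and 0.0113% in Col5a1CKO + vehicle wounds (0.00221% to 0.0888%). At day 14 of the other experiment the medians were 2.34% in WT (1.35% to 11.1%) and 0.00944% in Col5a1CKO wounds (0.00216% to 3.51%), a range in Col5a1CKO that ran into that of WT. Between these lay Col5a1CKO + fibroblasts at 0.930% (0.467% to 1.06%), Col5a1CKO + cilengitide at 1.70% (1.58% to 4.55%), day 19 WT at 1.54% (0.932% to 1.72%) and day 19 Col5a1CKO at 0.321% (0.307% to 1.48%). In RNA of whole tissue, fewer keratinocytes and less keratin RNA per keratinocyte cannot be told apart.

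**Figure D1:**
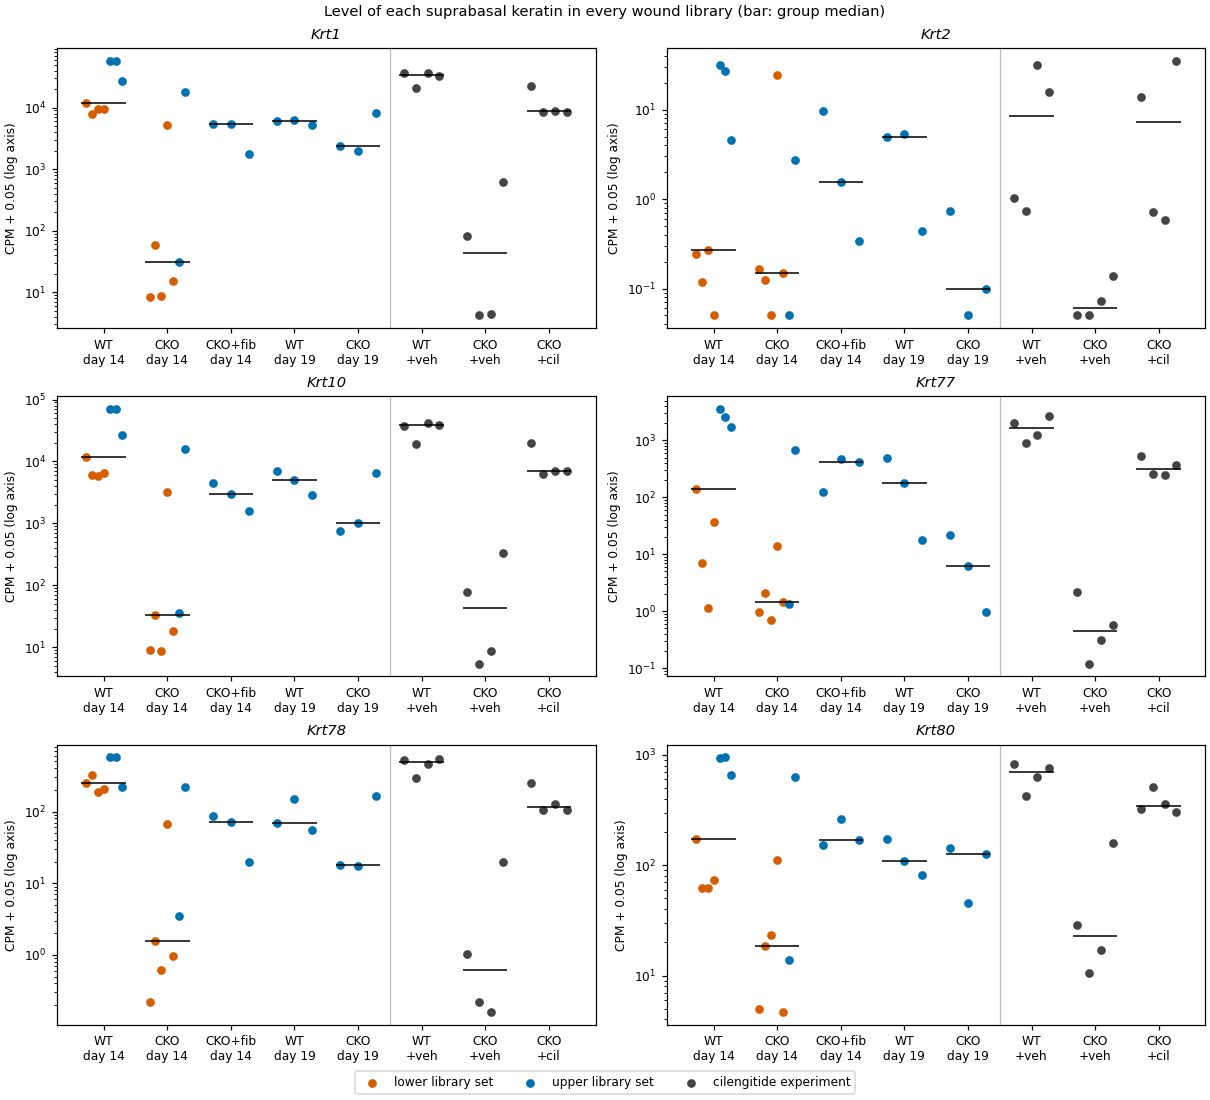
Level of each suprabasal keratin in every library, as CPM plus 0.05 on a log axis, with 1 panel per gene, groups along the horizontal axis, the group median as a bar and colours for the library set or the cilengitide experiment. Col5a1CKO libraries of day 14 spread over the full height, with Krt1 from 8.31 to 18250 CPM, whereas all 4 Col5a1CKO + vehicle libraries lay below all 4 WT + vehicle libraries for each gene.

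Krt1 and Krt10 dominated the 6. Their counts made up a median of 95.6% of the counts of the 6 keratins over the 35 libraries, with a lowest value of 41.1%. Per length of transcript, WT + vehicle wounds had a median of 18246 CPM per kb for Krt10, 14015 for Krt1, 966 for Krt77, 394 for Krt80, 142 for Krt78 and 3.19 for Krt2. Krt10 and Krt1 overlapped between libraries in this group, as did Krt80 and Krt77 in the day 14 WT group, where their medians were 97.4 and 82.2 CPM per kb. Krt2 had the lowest median per length in all 8 groups.

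The proportion between the 2 partners varied much less than their levels. Krt1 per Krt10, each per length, had a median of 0.968 over 35 libraries and stayed between 0.422 and 2.66, while Krt1 itself ranged from 4.15 to 57869 CPM. The medians were 0.862 in day 14 WT and 0.838 in day 14 Col5a1CKO wounds. In the cilengitide experiment the range was 0.708 to 0.92 in WT + vehicle and 0.422 to 1.57 in Col5a1CKO + vehicle wounds. With cilengitide it was 0.934 to 1.14, above all WT + vehicle wounds. The 2 highest values, 2.66 and 1.67, were those of day 19 Col5a1CKO wounds, where the remaining wound was at 1.09, and the group overlapped with WT at that day (0.761 to 1.55). Across libraries, Krt1 correlated with Krt10 on the log2(CPM + 1) scale with r = 0.99 over 23 libraries and 1.0 over 12, as a description over libraries that share groups and experiment.

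**Figure D2:**
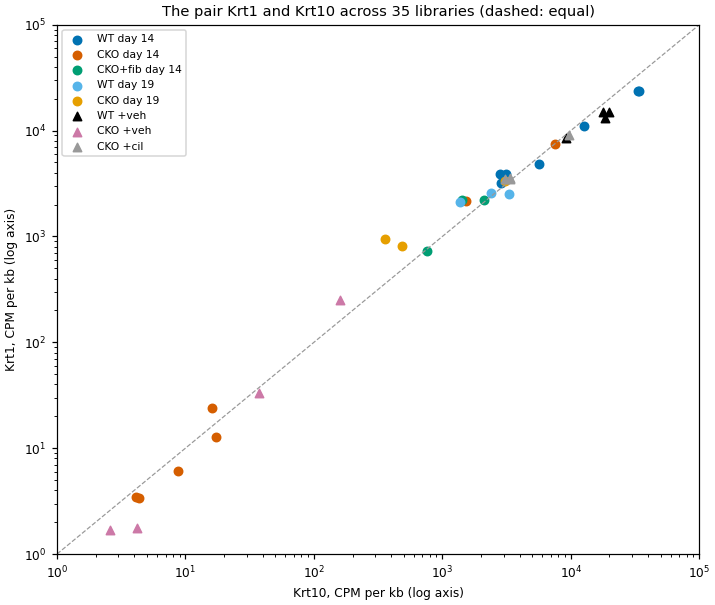
Krt1 against Krt10 in 35 libraries, both as CPM per kb of transcript on log axes, with colours and symbols for the 8 groups and a dashed line where both are equal. The libraries followed the line over the whole range, with Krt1 per Krt10 between 0.422 and 2.66.

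Krt78 followed the pair closely (r with Krt10 of 0.98 and 0.99), and Krt80 nearly so (0.90 and 0.98). Krt77 correlated with Krt10 at 0.74 in the time-course and fibroblast experiment and 0.96 in the cilengitide experiment. Krt2 was the least like the others, with r between 0.51 and 0.69 against each of them. It was also near the limit of counting, with a highest level of 35.2 CPM and a total of 5 counts over all 4 Col5a1CKO + vehicle libraries, 2 of which had 0 counts, which allows up to 3 counts in each.

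The first comparison asked how the loss of Col5a1 in fibroblasts changes the wound at day 14. Genes were called at an adjusted p under 0.05 and at least 2-fold, by edgeR's quasi-likelihood test. None of the 5 keratins that passed the count filter was called lower in Col5a1CKO than in WT wounds, where 2.71% of the 14367 genes tested were. Krt2 did not pass the filter. At an unadjusted p under 0.05 there was 1 (Krt78). DESeq2 called 2 of 6 lower (Krt10 and Krt78), against 4.82% of the 19086 genes it was given. All 5 log2 fold changes were negative, with a median of -2.95 beside -0.03 over all genes tested.

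The Col5a1CKO wounds were widely spread. Krt1 was 7862 CPM at the lowest, 11877 at the median and 57869 at the highest in WT, against 8.31, 31.0 and 18250 in Col5a1CKO wounds. Replicates a, b, c, e and f of the Col5a1CKO group stood at 8.31, 58.5, 8.50, 15 and 31.0 CPM, whereas replicates d and g stood at 5282 and 18250. All but replicate g were below every WT wound, 6 of 7, and replicate g was inside the WT range. The log2 fold change of Krt1 was -2.88 (SE 1.58, adjusted p = 0.254).

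Krt10 ranged from 5851 to 70473 CPM in WT (median 11787) and from 8.68 to 15811 in Col5a1CKO wounds (median 33.5), with replicates d and g at 3168 and 15811, so that again all but replicate g were below every WT wound. The log2 fold change was -3.30 (SE 1.63, adjusted p = 0.204). Krt78 ranged from 190 to 571 CPM in WT (median 252) and from 0.173 to 218 in Col5a1CKO wounds (median 1.53), with a log2 fold change of -2.95 (adjusted p = 0.155). Krt80 had a median of 173 CPM in WT (62.3 to 952) and 18.3 in Col5a1CKO wounds (4.62 to 626), with the smallest of the 5 log2 fold changes (-1.80, adjusted p = 0.319). Krt77 was spread widely in WT too, from 1.10 to 3571 CPM (median 141), against 0.661 to 672 CPM (median 1.41) in Col5a1CKO wounds. Without Col5a1CKO replicate g, 4 of the 5 keratins were called lower, against 6.83% of all genes tested in that fit, Krt77 with a log2 fold change of -8.37 and Krt10 with -5.67, and Krt1 was not (adjusted p = 0.0635).

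Within WT, libraries of the upper set held more of every member except Krt78 than any library of the lower set. Krt1 was 7862 to 11877 CPM in the 4 WT libraries of the lower set and 26911 to 57869 in the 3 of the upper set. Krt77 was 1.10 to 141 and 1734 to 3571 CPM. Krt78 overlapped between the sets, at 190 to 322 and 221 to 571 CPM. Within the lower set the log2 fold change of Krt10 between Col5a1CKO and WT was -3.56 (adjusted p = 0.280), and within the upper set -2.71 (adjusted p = 0.431), and no member was called in either. Of all genes tested, 2.92% were called lower within the lower set and 0.412% within the upper set. The summed level of the 10 keratinocyte markers spanned 16189 to 65574 CPM over WT wounds and 47.9 to 34272 over Col5a1CKO wounds. Col5a1CKO replicates d and g stood at 25927 and 34272, and the other 5 at 47.9 to 2618. None of the 10 markers was called in either direction, where 2.71% of all genes tested were called lower. The sum over 8 leukocyte markers had a median of 4394 CPM in WT and 11313 in Col5a1CKO wounds, and 5 of the 8 were called higher, against 5.57% of all genes tested. The part of these cells in the keratin levels was not tested.

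At day 19 none of the 6 keratins was called lower in Col5a1CKO than in WT wounds, and 0.0% of 15135 genes tested were. At an unadjusted p under 0.05 there were 2 (Krt2 and Krt77). DESeq2 called 1 lower (Krt77), against 4.13% of the 18957 genes it was given. Krt1 was 6163, 6274 and 5227 CPM in WT and 2339, 1990 and 8251 in Col5a1CKO wounds, so that 1 Col5a1CKO wound exceeded all 3 WT wounds. Krt10 was 6923, 4966 and 2882 CPM in WT and 751, 1021 and 6482 in Col5a1CKO wounds. The log2 fold changes were -0.43 (SE 0.67, adjusted p = 0.703) for Krt1 and -0.79 (SE 0.94, adjusted p = 0.612) for Krt10. Krt77, the neighbour of Krt1, was 487, 177 and 17.5 CPM in WT and 21.6, 6.23 and 0.916 in Col5a1CKO wounds, with a log2 fold change of -4.49 (SE 1.56, adjusted p = 0.173). The wound with the most Krt1 and Krt10 among the Col5a1CKO wounds of day 19 was the one with the least Krt77.

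The difference between genotypes was also compared between days. No keratin was called for the interaction of genotype and day, and 0.0% of 15954 genes were, with 0 members at an unadjusted p under 0.05 and 0 by DESeq2. DESeq2 called 0.0973% and 0.123% of all genes in the 2 directions. From day 14 to day 19, WT wounds had 1 of 6 keratins called lower (Krt78, from 190 to 571 CPM down to 54.6, 70.1 and 148, log2 fold change -1.85, adjusted p = 0.0421), against 4.25% of all genes tested. That call was lost without WT replicate a, b, d or e of day 14 or any 1 of the day 19 libraries. In those fits 0.478% to 4.48% of all genes tested were called lower. All 6 log2 fold changes were negative in that comparison. The day 19 libraries are all of the upper set, and within it 4 were called lower, against 10.1% of all genes tested there, with log2 fold changes of -2.88 for Krt1 (adjusted p = 0.0118), -3.37 for Krt10, -2.22 for Krt78 and -2.67 for Krt80. Among Col5a1CKO wounds no keratin was called between the days in either direction, against 5.72% of all genes by edgeR. There were 0 at an unadjusted p under 0.05 and 0 by DESeq2, which called 5.99% of all genes lower and 2.68% higher.

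WT fibroblasts were injected to ask whether they restore the wound of Col5a1CKO mice. Compared with Col5a1CKO wounds that had none, no keratin was called higher, nor was any at an unadjusted p under 0.05 or by DESeq2, and 0.0% of 15659 genes were called higher. DESeq2 called 0.047% of all genes higher. Krt1 was 5417, 5371 and 1793 CPM with fibroblasts, Krt10 was 4444, 2990 and 1584 CPM, and Krt77 was 126, 475 and 416 CPM. All 3 wounds stood above the 5 low Col5a1CKO wounds and below replicate g for each of these keratins. The log2 fold changes were 0.31 for Krt1 (SE 2.22), 0.14 for Krt10 (2.19) and 1.77 for Krt77 (2.03), with adjusted p of 0.956, 0.980 and 0.697. All 3 fibroblast libraries are of the upper set, where the Col5a1CKO group has only replicates f and g, and there Krt1 and Krt10 turned direction, to -1.05 and -1.32.

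Compared with WT wounds, 1 of 6 keratins was called lower with fibroblasts (Krt78, 87.1, 71.8 and 19.9 CPM, log2 fold change -2.34, SE 0.56, adjusted p = 0.0301), against 2.06% of all genes tested, and that call was lost without any 1 of the 3 fibroblast libraries. Without 1 of those libraries, 0.47% to 0.793% of all genes tested were called lower. Krt1, Krt10 and Krt78 were below every WT wound in all 3 fibroblast libraries, and the share of all genes for which this held was not counted. The log2 fold changes of Krt1 and Krt10 were -2.47 (SE 0.83, adjusted p = 0.106) and -3.07 (SE 1.02, adjusted p = 0.106). Krt77 and Krt80 overlapped with WT. Within the upper set, 5 of 6 were called lower, with log2 fold changes of -3.35 for Krt1 (adjusted p = 0.00283), -4.06 for Krt10, -2.80 for Krt77, -2.78 for Krt78 and -1.97 for Krt80, where 11.2% of all genes tested were called lower. The summed keratinocyte markers were 11658 to 26821 CPM with fibroblasts and overlapped with those of WT wounds. Of 8 leukocyte markers 5 were called higher with fibroblasts than in WT wounds (summed level 10149 to 11684 CPM against 1698 to 11679), and of 4 endothelial markers 2, and their part in the keratin levels was not tested. Of all genes tested, 3.77% were called higher in that comparison.

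In the cilengitide experiment the vehicle groups gave the comparison of genotypes in separate libraries, and all 6 keratins were called lower in Col5a1CKO + vehicle than in WT + vehicle wounds, against 13.4% of 15434 genes tested. The groups did not overlap for any of the 6, which held in this direction for 25.1% of genes. Krt1 was 37025, 20707, 36382 and 32208 CPM in WT + vehicle and 81.2, 4.15, 4.32 and 613 in Col5a1CKO + vehicle wounds. The lowest WT + vehicle wound thus stood far above the highest Col5a1CKO + vehicle wound. The log2 fold change was -7.55 (SE 1.91, adjusted p = 0.0139).

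Krt10 was 37471, 19254, 41354 and 38908 CPM in WT + vehicle and 78.5, 5.38, 8.75 and 334 in Col5a1CKO + vehicle wounds, with a log2 fold change of -8.39 (SE 1.67, adjusted p = 0.00527). Krt77 showed the largest fold change of the 6, from 2053, 919, 1266 and 2704 CPM to 2.17, 0.0699, 0.263 and 0.534 (log2 fold change -11.20, SE 1.35, adjusted p = 0.00102). Krt78 went from 521, 293, 456 and 533 CPM to 0.975, 0.168, 0.110 and 19.8 (log2 fold change -6.49, adjusted p = 0.0185). Krt2 was at 0.977, 0.693, 31.2 and 15.7 CPM in WT + vehicle wounds, or 2714 counts in all, against 5 counts in all in Col5a1CKO + vehicle wounds (adjusted p = 0.00589). Krt80, the keratin near desmosomes, had the smallest fold change, from a median of 698 CPM (lowest 423) to 28.7, 10.4, 16.9 and 159 (log2 fold change -3.68, SE 0.91, adjusted p = 0.0124). As a share of the counts of the 6 keratins, Krt80 had a median of 1.02% in WT + vehicle and 33.3% in Col5a1CKO + vehicle wounds, and 0.702% and 16.0% in day 14 WT and Col5a1CKO wounds of the other experiment. Col5a1CKO + vehicle replicate 4 held the highest level of Krt1, Krt10, Krt78 and Krt80 in its group, and of the keratinocyte markers (15785 CPM against 98.3 to 2232).

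Cilengitide was given to ask whether blocking αvβ3 changes the Col5a1CKO wound. In Col5a1CKO + cilengitide wounds, 5 of the 6 keratins were called higher than in Col5a1CKO + vehicle wounds, against 6.48% of 15563 genes tested. The groups did not overlap for any of the 6, which held in this direction for 18.1% of genes. Krt1 was 22051, 8560, 8719 and 8464 CPM with cilengitide (log2 fold change 6.09, SE 1.76, adjusted p = 0.0402). Krt10 was 20191, 6395, 7078 and 7015 CPM (6.58, SE 1.52, adjusted p = 0.0204). Replicates 2 to 4 were close to each other for both genes, and replicate 1 was higher.

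Krt77 was 534, 262, 243 and 370 CPM with cilengitide, a log2 fold change of 8.86 (SE 1.16, adjusted p = 0.00449) over Col5a1CKO + vehicle. Krt2 was 13.8, 0.660, 0.538 and 35.2 CPM, or 3198 counts in all against 5 (adjusted p = 0.0174). Krt80 was 321, 513, 361 and 301 CPM (log2 fold change 2.80, SE 0.87, adjusted p = 0.0494). Krt78 was 246, 104, 127 and 105 CPM and was not called by edgeR (4.80, SE 1.63, adjusted p = 0.0650), whereas DESeq2 called it (4.86, adjusted p = 0.00064) and so called all 6. DESeq2 called 7.66% of all genes higher. By edgeR, leaving out 1 library gave 2 to 6 keratins called, with 2 without Col5a1CKO + vehicle replicate 3 and 3 without Col5a1CKO + vehicle replicate 1 or any 1 of the 4 cilengitide libraries. Over those fits 4.40% to 10.6% of all genes tested were called higher.

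**Figure D3:**
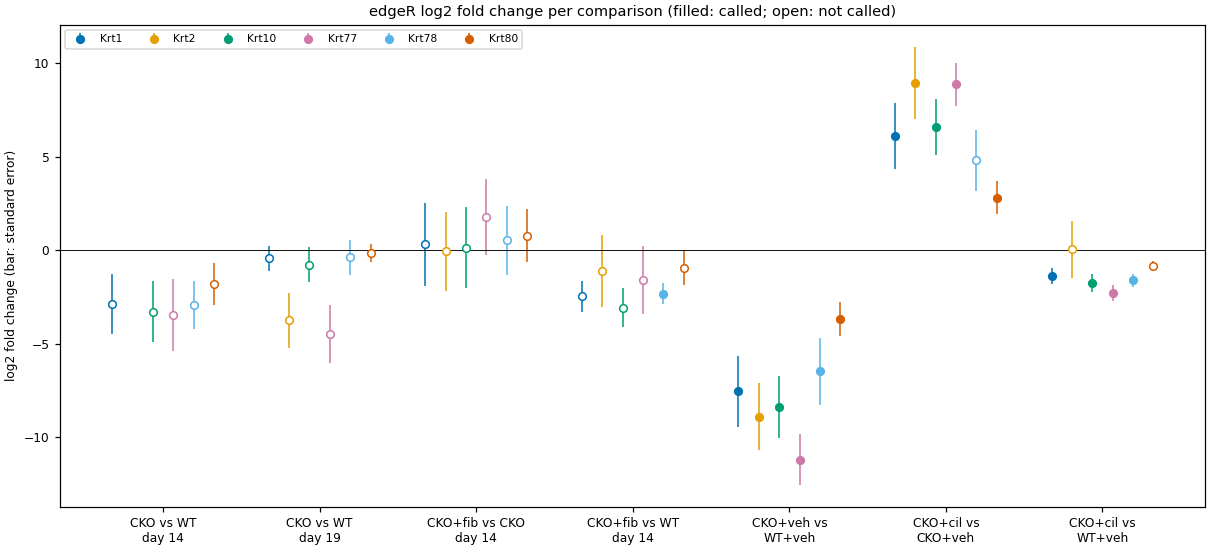
Log2 fold change of each keratin in 7 comparisons from edgeR, with the SE as a bar, filled points for calls and open points for the rest, and Krt2 absent at day 14, where it was not tested. The 6 filled points at -3.68 to -11.20 are Col5a1CKO + vehicle against WT + vehicle, and the 5 filled points at 2.80 to 8.94 are Col5a1CKO + cilengitide against Col5a1CKO + vehicle.

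The level with cilengitide remained under that of WT + vehicle wounds for most members. Krt1, Krt10, Krt77 and Krt78 were called lower in Col5a1CKO + cilengitide than in WT + vehicle wounds, 4 of 6 against 3.43% of 15514 genes tested. The log2 fold changes were -1.39 for Krt1 (SE 0.41, adjusted p = 0.0475), -1.74 for Krt10 (0.48, adjusted p = 0.0396), -2.30 for Krt77 (0.41, adjusted p = 0.0193) and -1.62 for Krt78 (0.34, adjusted p = 0.0229). The groups did not overlap for 2 of the 6, Krt77 and Krt78, which held in this direction for 15.5% of genes. Krt80 was lower by less than 2-fold (log2 fold change -0.83, adjusted p = 0.0475), and Krt2 had a log2 fold change of 0.04 (SE 1.53). These calls were less firm than those of the vehicle groups, with 0 keratins called without cilengitide replicate 2, 3 or 4, 1 without WT + vehicle replicate 3, 2 without WT + vehicle replicate 1 or 4, and 0 when the 3 groups were fitted together. The calls over all genes fell too, with 0.0% called lower without cilengitide replicate 2, 3 or 4. The share was 1.24% without WT + vehicle replicate 3, 3.93% without replicate 1 and 1.7% without replicate 4. With the 3 groups fitted together it was 1.09%. Both comparisons of the cilengitide group share libraries with the comparison of the vehicle groups, so the 3 are not independent.

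Basal keratin RNA was then used as a measure from the same wound. For each member, the log2 ratio to the basal keratin of its type (Krt5 for the type II members, Krt14 for Krt10) was compared by 2-sided exact permutation tests over libraries, 42 in all, of which none had an adjusted p under 0.05. Krt1 per Krt5, per length, was 5.15, 3.47, 4.60 and 4.99 in WT + vehicle, 0.151, 0.192, 0.0713 and 0.367 in Col5a1CKO + vehicle and 3.64, 1.15, 1.48 and 2.03 in Col5a1CKO + cilengitide wounds. The ratio was therefore lower in all 4 Col5a1CKO + vehicle wounds than in any wound of the other 2 groups. The mean log2 ratio differed by -4.69 between the vehicle groups and by 3.43 between cilengitide and vehicle in Col5a1CKO wounds (each exact permutation p = 0.0286, the smallest that 4 against 4 can give, adjusted p = 0.0924).

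Krt10 per Krt14 was 2.16, 1.19, 3.70 and 5.68 in WT + vehicle, 0.0620, 0.153, 0.0705 and 0.0304 in Col5a1CKO + vehicle and 0.910, 0.256, 0.343 and 0.459 in Col5a1CKO + cilengitide wounds, with no overlap between any 2 of these groups. Krt77 per Krt5 differed by -5.38 and Krt78 per Krt5 by -2.68 on the log2 scale between the vehicle groups, again with no overlap (each exact permutation p = 0.0286, adjusted p = 0.0924). The added 0.5 CPM exceeded both genes' levels in Col5a1CKO + vehicle replicates 2 and 3, so the sizes of these differences depend on it. With nothing added, Krt77 per Krt5 per length was 0.219 to 0.596 in WT + vehicle and 0.000455 to 0.00618 in Col5a1CKO + vehicle wounds. Krt78 per Krt5 was 0.035 to 0.0588 and 0.00129 to 0.00844. Krt80 per Krt5 did not move this way. It was 0.0977 to 0.164 in WT + vehicle and 0.0737 to 0.662 in Col5a1CKO + vehicle wounds, a difference of 0.81 in log2 (exact permutation p = 0.371, adjusted p = 0.537). The levels of Krt2 were too low for its ratio to be read, since the added 0.5 CPM exceeded most of its values in Col5a1CKO wounds given neither fibroblasts nor cilengitide.

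At day 14 of the other experiment, Krt1 per Krt5 was 2.60 to 8.45 in WT (median 4.77) and 0.0111 to 4.21 in Col5a1CKO wounds (median 1.03), a difference of -3.14 in mean log2 ratio (exact permutation p = 0.00291, adjusted p = 0.0924). The 9 libraries of the lower set alone gave -3.82 (exact permutation p = 0.0317), and the 5 of the upper set gave -1.32 (exact p = 0.300, where the smallest possible is 0.1). Krt10 per Krt14 differed by -2.52 (exact permutation p = 0.0495, adjusted p = 0.136) and Krt78 per Krt5 by -1.60 (exact permutation p = 0.117). Krt77 per Krt5 differed by -0.44 (exact permutation p = 0.798) and by 1.09 within the lower set, and Krt80 per Krt5 by 1.20 (exact permutation p = 0.189). The low Col5a1CKO wounds were not alike in this ratio, with Krt1 per Krt5 at 2.22 in replicate a, whose Krt5 was 3.35 CPM, and 0.0111 in replicate c, whose Krt5 was 688 CPM. With fibroblasts Krt1 per Krt5 was 1.01 to 3.20, a difference of 1.49 from Col5a1CKO wounds (exact permutation p = 0.450) and of -1.66 from WT wounds (exact permutation p = 0.0250, adjusted p = 0.0924). At day 19 it spanned 1.23 to 3.70 over WT wounds, against 1.35 to 8.37 over Col5a1CKO wounds (exact permutation p = 0.700). Krt77 per Krt5 did not overlap between the genotypes at day 19, with a difference of -3.08 (exact permutation p = 0.1, the smallest that 3 against 3 can give, adjusted p = 0.221).

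**Figure D4:**
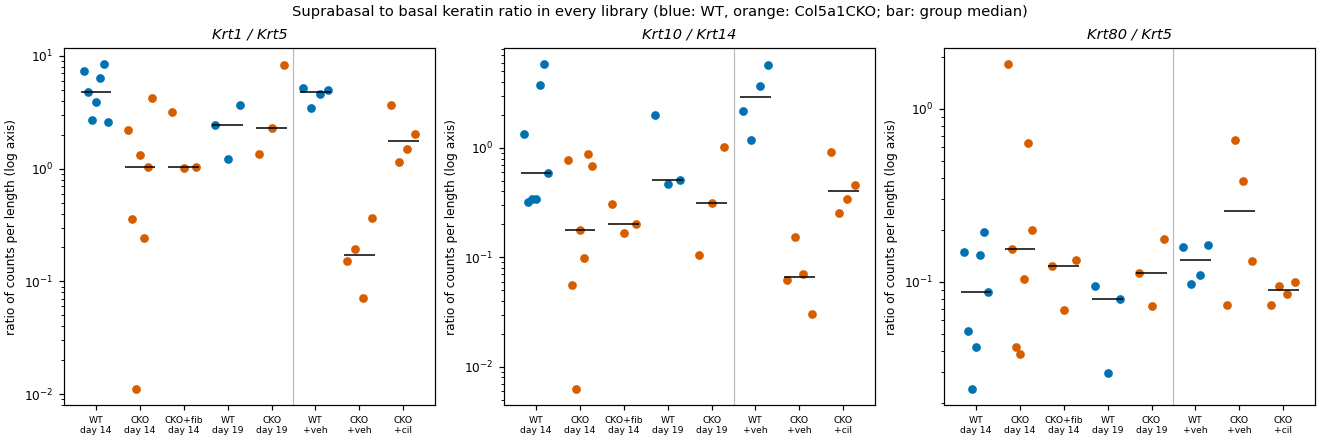
Ratio of Krt1 to Krt5, Krt10 to Krt14 and Krt80 to Krt5 in every library, as counts per length on log axes, by group, with WT in blue, Col5a1CKO in orange and the group median as a bar. Krt1 per Krt5 lay at 0.0713 to 0.367 in Col5a1CKO + vehicle and at 3.47 to 5.15 in WT + vehicle wounds, whereas Krt80 per Krt5 overlapped between these groups.

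The basal keratins Krt5, Krt14 and Krt15 were also compared. Of all genes tested, 13.4% were called lower in Col5a1CKO + vehicle than in WT + vehicle wounds, and 6.48% higher with cilengitide than with vehicle. In Col5a1CKO + vehicle wounds 2 of 3 were called lower than in WT + vehicle, Krt15 (log2 fold change -7.01, SE 1.21, adjusted p = 0.00314) and Krt5 (-3.65, SE 1.25, adjusted p = 0.0431), and the list had a median of -3.65 beside -7.97 for the 6 suprabasal keratins. Krt14 had a log2 fold change of -2.12 and overlapped between the groups. With cilengitide Krt15 was called higher than with vehicle (5.17, SE 1.08, adjusted p = 0.0154). It was called lower than in WT + vehicle wounds (-1.79, SE 0.42, adjusted p = 0.0279), where 3.43% of all genes tested were called lower. Of the wound and stress keratins Krt6a, Krt6b, Krt16 and Krt17, none of 4 was called in any comparison of the cilengitide experiment, with medians of -1.63 between the vehicle groups and 2.68 between cilengitide and vehicle in Col5a1CKO wounds. At an unadjusted p under 0.05 there were 0 in each of those, and 2 between cilengitide and WT + vehicle, where the median was 1.09. Krt6b, called lower in WT wounds at day 19 than at day 14 (log2 fold change -2.45, SE 0.64, adjusted p = 0.0475), was the only member of that list called in any comparison of 2 groups. Between those days 4.25% of all genes tested were called lower.

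The suprabasal companion genes code for other products of the differentiating layers, such as cornified envelope proteins and desmosomal cadherins, and 17 of the 18 listed were found and tested. In Col5a1CKO + vehicle wounds 8 were called lower than in WT + vehicle and none higher, and all 17 log2 fold changes were negative. Of all genes tested, 13.4% were called lower and 17.5% higher there. Flg2, a filaggrin relative of the upper epidermis, went from 351 to 1195 CPM down to 0.0279 to 1.42 (log2 fold change -10.03, adjusted p = 0.00187). Lor, the major cornified envelope protein, had a log2 fold change of -8.48 (adjusted p = 0.00829), and Ivl, an envelope precursor of the spinous layer, -6.73 (adjusted p = 0.00609). With cilengitide 4 of 17 were called higher than with vehicle, led by Flg2 (7.70), Lor (6.66) and Ivl (4.79), and 9 were called lower than in WT + vehicle wounds. The shares of all genes tested were 6.48% and 3.43%.

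In the other experiment Ivl was the only companion gene called at day 14, lower in Col5a1CKO than in WT wounds (0.520 to 133 CPM against 281 to 709, log2 fold change -3.78, SE 1.14, adjusted p = 0.0475), while all 17 had negative log2 fold changes with a median of -2.65. With fibroblasts 7 were called lower than in WT wounds, led by Hrnr (-3.74), Flg2 (-3.45) and Ivl (-2.77). From day 14 to day 19, 8 were called lower in WT wounds, led by the desmosomal cadherin Dsc1, from 1916 to 3206 CPM down to 103 to 174 (log2 fold change -4.26, SE 0.43, adjusted p = 0.00184), Hrnr (-3.90) and Dsg1b (-3.56). Of all genes tested, 2.71% were called lower between the day 14 genotypes, 2.06% with fibroblasts against WT and 4.25% between WT days.

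Among 22 regulators of differentiation, which were transcription factors, Notch components and the calcium-sensing receptor gene Casr, 9 of 21 tested were called lower and 2 higher in Col5a1CKO + vehicle than in WT + vehicle wounds. Of all genes tested, 13.4% were called lower and 17.5% higher, so the 2 called higher were a smaller share than over all genes. Gata3, a transcription factor of the differentiating epidermis, had the largest change, from 139 to 262 CPM down to 1.73 to 6.05 (log2 fold change -5.96, SE 0.51, adjusted p = 0.000456), followed by Grhl1 (-4.32) and Tfap2a (-4.02). The 2 called higher were Cebpb (2.07) and Rbpj (1.96) (adjusted p = 0.0363 and 0.00466), named here after their values were seen. With cilengitide 8 were called higher than with vehicle, led by Gata3 (4.36), Tfap2a (3.46) and the vitamin D receptor gene Vdr (2.15), and 1 lower, Rbpj (-1.48). Of all genes tested, 6.48% were called higher and 6.59% lower with cilengitide. Gata3 was the only regulator called between cilengitide and WT + vehicle wounds (-1.56, SE 0.25, adjusted p = 0.0193), where 3.43% of all genes tested were called lower. At day 14 none was called between Col5a1CKO and WT wounds, with 5 at an unadjusted p under 0.05. Of all genes tested, 2.71% were called lower and 5.57% higher there. Prdm1 was the only regulator called between WT wounds of day 19 and day 14 (-1.36, SE 0.31, adjusted p = 0.0276), where 4.25% of all genes tested were called lower.

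**Figure D5:**
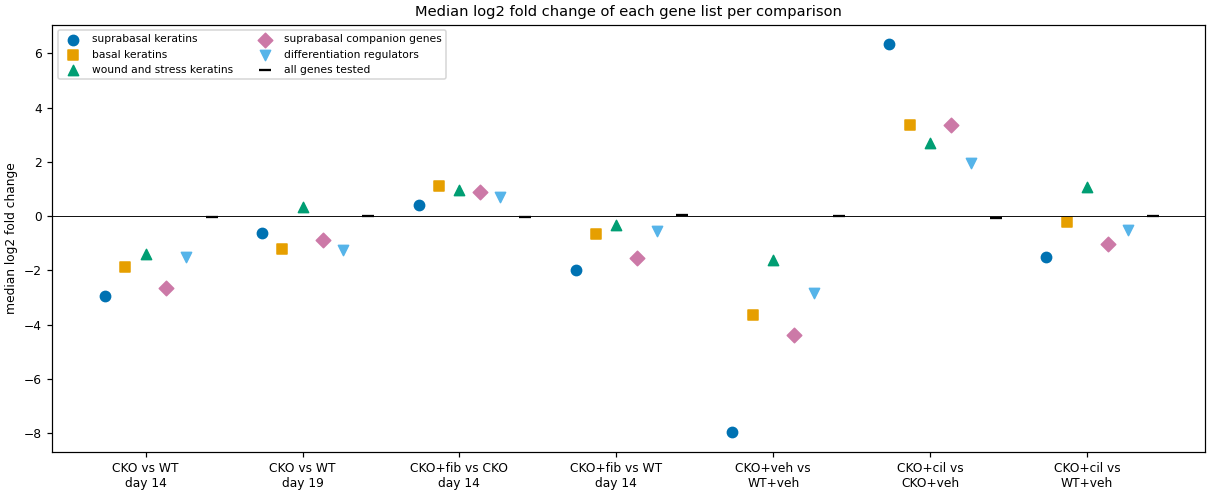
Median log2 fold change of the 6 suprabasal keratins and of 4 other gene lists in 7 comparisons, with the median over all genes tested as a dash. The suprabasal keratins lie farthest from 0 between the vehicle groups (-7.97) and between cilengitide and vehicle in Col5a1CKO wounds (6.34), where the basal keratins lie at -3.65 and 3.37.

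Markers of other cells moved with these comparisons. Of all genes tested, 13.4% were called lower and 17.5% higher in Col5a1CKO + vehicle than in WT + vehicle wounds. With cilengitide 6.48% were called higher and 6.59% lower than with vehicle, and 5.15% higher than in WT + vehicle wounds. Between the vehicle groups the summed level of 10 keratinocyte markers was 23507 to 32033 CPM in WT and 98.3 to 15785 in Col5a1CKO wounds, and with cilengitide it was 23995 to 38496 CPM, a range that overlapped with WT + vehicle. Of the 10, 4 were called lower in Col5a1CKO + vehicle than in WT + vehicle wounds. Of 8 leukocyte markers, 7 were called higher in Col5a1CKO + vehicle than in WT + vehicle wounds, with summed levels of 4976 to 49339 CPM against 376 to 2801, and 5 were called lower with cilengitide than with vehicle (4451 to 8857 CPM). Of 11 hair follicle markers, 9 were called lower in Col5a1CKO + vehicle than in WT + vehicle wounds, with summed levels of 45.1 to 95.3 CPM against 83.2 to 6719. Sebaceous gland markers were at 23.2 to 47.2 CPM against 1439 to 2395, with all 6 tested called lower. With cilengitide all 6 sebaceous gland markers tested (510 to 1496 CPM) and 6 of 10 hair follicle markers (156 to 464 CPM) were called higher than with vehicle, and 5 of 8 leukocyte markers were called higher than in WT + vehicle wounds. Between the vehicle groups, 2 of 7 fibroblast and 2 of 4 endothelial markers were called higher in Col5a1CKO wounds. None of 6 skeletal muscle and 2 adipocyte markers tested was called between those groups. At day 14 of the other experiment 7 of 9 hair follicle markers tested were called lower in Col5a1CKO than in WT wounds, against 2.71% of all genes tested. Of the 11 markers 1 was at 0 in every Col5a1CKO library. The part of these cell types in the keratin differences was not tested.

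The genes whose levels were most like those of the members were chosen by the smaller of the correlations over the 23 and the 12 libraries, among 11493 genes. Casp14, a protease of the granular layer, was closest to both Krt1 (r = 0.991 and 0.996) and Krt10 (0.985 and 0.989), followed by Pla2g4f for both (at least 0.982). Krt78 was closest to Serpina12 (0.983 and 0.995), Fam25c and Them5, and Them5 was also among the 3 closest to Krt1. Krt80 was closest to Iffo2 (0.972 and 0.991), Ceacam19 and Jup, the gene of the junction protein plakoglobin. Krt77 was closest to Phyhip (0.931 and 0.990), Ccdc64 and Card14. Krt2 reached no more than 0.767 and 0.791, with Serpina3j. These are descriptions over libraries that share groups, experiment and depth.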

How the data were processed

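RNA-seq was performed on 35 wound punches. Per the labels and the study's methods, total RNA went into stranded libraries read as 50 bp single ends, HISAT2 aligned them to NCBI37/mm9, and the authors deposited a raw count and a transcript length for each RefSeq transcript, from exon counting in SeqMonk. Whether these steps also cover the cilengitide libraries is not given in the sources used here. Rows with no symbol (30 of 29082, 0.04918% of counts, and 1 of 22831, 6e-05%) were left out. Of several rows with the same symbol, the one with the largest total was used. The 2 tables were analysed separately.

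Counts were tested for each pair of groups with edgeR 4.0.16 (R 4.3.3; TMM, filterByExpr with a minimum count of 10, quasi-likelihood, robust), with Benjamini-Hochberg adjustment over all genes tested. Genes were called at an adjusted p under 0.05 and at least 2-fold. DESeq2 1.42.0, other filters and scalings, the replicate block, library sets and 90 fits that each left out 1 library were alternatives. Scripts were tested on simulated data. Ratios to basal keratins (0.5 CPM added to each) and correlations were computed in Python 3.11.15. Library sets were split at the widest gap (1.59 log2 units, the next being 0.33) in the difference between GC-rich and GC-poor genes, with GC known for 97.8% of genes.

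All 6 keratins are described. Of each other list, the genes named are up to 3 called genes with the largest change per comparison, and likeness is the smaller of both correlations. Members and lists were chosen with earlier results of these data known. The study's methods call its replicates separate biological replicates, although the labels name no animal for a library. Same-letter libraries were not shown to be pairs. Intervals of counting error are not given for groups, and a count of 0 allows up to 3 counts.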

Additional observations from a re-analysis of the deposited data

Results flagged for a closer look

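A library was marked where its gap to the nearest other library of a group of 4 to 10 was large for that group's range by Dixon's criterion. This was so for 15 of 60 groups of values tested, and in each the highest library stood apart. Chance alone marks about 1 in 20 where values are normally distributed. Here CPM and ratios were used without logs, and how often chance marks a highest library on that scale was not tested. The members are correlated, so the marks are not independent.

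In day 14 Col5a1CKO wounds replicate g was highest for Krt1 (18250 CPM), Krt10 (15811 CPM), Krt77 (672 CPM), Krt78 (218 CPM) and Krt80 (626 CPM), and replicate d for Krt2 (24.6 CPM). The same 2 libraries had the highest summed keratinocyte markers of the group. Krt2 per Krt5 reached 0.0289 and Krt80 per Krt5 reached 1.81 in replicate a, whose Krt5 was 3.35 CPM.

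In Col5a1CKO + vehicle wounds replicate 4 was highest for Krt1 (613 CPM), Krt78 (19.8 CPM) and Krt80 (159 CPM), and it had the highest keratinocyte markers of that group. Krt2 per Krt5 was highest in this group at 0.000339, a ratio that rests on no more than 5 counts of Krt2 in all 4 libraries. In Col5a1CKO + cilengitide wounds replicate 1 was highest for Krt1 (22051 CPM), Krt10 (20191 CPM) and Krt78 (246 CPM).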

How the results depend on the processing

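The 6 calls between Col5a1CKO + vehicle and WT + vehicle wounds held at 3-fold, with library size only, with every gene of at least 1 count, with all groups fitted together and by DESeq2, and when any 1 library was left out (6 each time). Of all genes tested, 8.76%, 14.7%, 11.4%, 14.1% and 12.9% were called lower in these settings. With 1 library left out it was 11.6% to 15.1%. An exact permutation test over all genes gave 0 calls in that comparison, 0 between cilengitide and vehicle, 0 between cilengitide and WT + vehicle, 0 between fibroblasts and WT, 0 between WT days and 3 between the day 14 genotypes. Between the day 14 genotypes 4.52% of all genes tested were called lower by that test, and 0.0% in the other comparisons named. With 4 against 4 its smallest p is 0.0286 before adjustment. All 6 keratins stood at that exact permutation p between the vehicle groups (adjusted p = 0.0575) and between cilengitide and vehicle (adjusted p = 0.091). With 3 against 7 the smallest is 0.00833, where Krt78 stood for fibroblasts against WT (adjusted p = 0.0765).

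Counts of keratins called moved as follows. DESeq2 called 2 between the day 14 genotypes, 1 between those of day 19, 3 between fibroblasts and WT, 3 between WT days and 6 in place of 5 between cilengitide and vehicle. Of all genes DESeq2 called 4.82%, 4.13%, 6.31% and 6.95% lower and, between cilengitide and vehicle, 7.66% higher. Fitting all groups of a table together gave 0 for fibroblasts against WT, 0 for cilengitide against WT + vehicle and 0 between WT days. Those fits called 6.04%, 1.09% and 8.24% of all genes tested lower. The call between WT days was also lost (0) with library size only, with every gene of at least 1 count and with rows of a symbol summed. Of all genes tested, 1.93%, 2.86% and 3.77% were called lower in these. With library set as a covariate there were 4 for fibroblasts against WT and 4 between WT days, and within the upper set 5 and 4. Of all genes tested, 6.67% and 7.44% were called lower with the covariate, and 11.2% and 10.1% within the upper set. Leaving out 1 library gave 0 to 4 between the day 14 genotypes, 0 to 1 for fibroblasts against WT, 2 to 6 for cilengitide against vehicle, 0 to 4 for cilengitide against WT + vehicle and 0 to 1 between WT days. Of all genes tested, 1.31% to 6.83%, 0.47% to 2.45%, 0.0% to 3.93% and 0.478% to 5.25% were called lower in these, leaving aside cilengitide against vehicle. There 4.40% to 10.6% were called higher. Causes were not tested.

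Libraries that share a letter were not shown to be paired: their deviations correlated at -0.46 to 0.57 over 7 pairs of the day 14 genotypes, -0.43 to -0.32 over 3 pairs at day 19 and -0.20 to 0.41 over 3 pairs with fibroblasts. With the replicate block 3 keratins were called between the day 14 genotypes, 5 between fibroblasts and Col5a1CKO, 3 between fibroblasts and WT, 2 between WT days (Krt78 lower and Krt77 higher at day 19) and 2 between Col5a1CKO days (Krt1 and Krt10, both higher at day 19). Of all genes tested, the block called 3.95% lower between the day 14 genotypes, 9.33% higher for fibroblasts against Col5a1CKO and 11.8% lower against WT. Between WT days it called 11.3% lower and 5.82% higher, and between Col5a1CKO days 6.61% higher. The replicate block turned the log2 fold change of Krt77 to 5.30 and of Krt80 to 1.09 for fibroblasts against WT, and to 3.43 (adjusted p = 0.0219, called in the turned direction) and 0.38 between WT days.

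The other directions that turned were of values that had not been called. For fibroblasts against Col5a1CKO, library set as a covariate gave -1.13 for Krt1, 1.49 for Krt2, -1.40 for Krt10, -0.90 for Krt78 and -0.72 for Krt80, and the upper set alone gave -1.05, 1.57, -1.32, -0.82 and -0.64. There Krt2 was 2.80 by DESeq2 and 0.72 in the permutation test, which also gave 1.13 for Krt77 for fibroblasts against WT, -0.10 for Krt2 for cilengitide against WT + vehicle and 0.08 for Krt2 between WT days. Leaving out 1 library gave -2.27 to 0.08 for Krt78 and -0.44 to 0.22 for Krt80 between the day 19 genotypes, -2.11 to 2.88 for Krt2 and -0.26 to 2.46 for Krt10 for fibroblasts against Col5a1CKO, and -1.24 to 1.12 for Krt2 for cilengitide against WT + vehicle.

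Of the log2 ratios to a basal keratin, adding 0.1 CPM gave 0.05 for Krt78 (fibroblasts against Col5a1CKO), 0.0 for Krt2 (vehicle groups) and 0.04 for Krt2 (cilengitide against vehicle). Adding 5 CPM gave 0.34 for Krt77 (day 14 genotypes), 0.56 for Krt2 (day 19 genotypes) and -0.68 for Krt78 (cilengitide against vehicle). The other basal keratin as partner gave 0.18 for Krt77 (day 14 genotypes), -0.65 for Krt1, -1.0 for Krt78 and -0.15 for Krt80 (day 19 genotypes) and -0.89 for Krt2 (cilengitide against WT + vehicle). The lower set alone gave 1.09 for Krt77 and the upper set alone 0.74 for Krt78 (day 14 genotypes). The upper set gave -0.47 for Krt1 and -1.82 for Krt10 (fibroblasts against Col5a1CKO) and -0.92 for Krt2, -1.31 for Krt77 and -0.36 for Krt80 (fibroblasts against WT). Depth limited Krt2 most, and also Krt77 (5, 12 and 24 counts in Col5a1CKO + vehicle replicates 2 to 4) and Krt78 (12 and 5 counts in replicates 2 and 3, and 3 in day 14 Col5a1CKO replicate a).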
